A study of Mus musculus with 6 samples.

Results

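The genes described here are 9 genes that place T cells relative to the B cell follicle or let them leave the spleen: the chemokine receptors *Cxcr5*, *Cxcr4*, *Cxcr3* and *Ccr7*, the oxysterol receptor *Gpr183*, the sphingosine 1-phosphate receptors *S1pr1* and *S1pr4*, and the transcription factors *Klf2* and *Foxo1*. They were chosen by name from the 53379 genes listed for each library, and all 9 passed the expression filter. When the CTL and *Prdm1*-CKO groups were compared by quasi-likelihood in edgeR, 0 of the 9 passed an adjusted p of 0.05 (0% of all genes tested) and 0 passed an unadjusted p of 0.05 (2.35% of all genes tested), counts that do not set the members apart from other genes. Each of the 9 intervals of the ratio of *Prdm1*-CKO to CTL (95%) lay between 0.506 and 1.79. The level per length differed far more between the genes than between the groups, from 238 for *Cxcr3* to 7.68 CPM per kb for *Cxcr4* as means of 6 mice.

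Splenic Tfh cells, sorted as live TCRβ+CD4+CXCR5+PD1+ cells, were taken from 3 CTL and 3 *Prdm1*-CKO mice, all female, on day 7 after NP-CGG had been given in CFA, and each mouse gave 1 Smart-seq2 library. *Prdm1*-CKO mice carry *Prdm1* fl/fl with CD11c-CRE, which deletes the gene in dendritic cells and not by design in the sorted T cells. CTL mice were *Prdm1* fl/fl without CRE or *Prdm1* +/+ with CD11c-CRE, and the labels do not say which mouse was which. The mice of the study were immunized at 6 to 8 weeks of age, and all were immunized, so no resting group is at hand. The sort for sequencing did not gate on FOXP3, and *Foxp3* RNA was present in every mouse, from 134 to 182 CPM.

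Tfh cells reach the follicle by a change of receptors. CXCR5 follows CXCL13 into the follicle, CCR7 follows CCL19 and CCL21 in the T cell zone, GPR183 (EBI2) follows oxysterols to the edge of the follicle, and S1PR1 follows sphingosine 1-phosphate out of the organ. KLF2 raises *S1pr1* in T cells, and FOXO1 lies upstream of *Klf2* and *Ccr7* in naive T cells and is held out of the nucleus by AKT.

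Total counts per mouse ranged from 7147601 to 16973392, and 3 counts, taken as the smallest amount a library could show, were 0.177 to 0.420 CPM, which covers counting error only. CPM are counts scaled to a common library size with TMM factors. CTL replicate 2 stood apart, since its log2 CPM correlated with those of the other 5 libraries at 0.875 on average, and each of the rest at 0.923 to 0.944, and the members' log2 fold changes without it are given after their values. *Prdm1* was at 27.5 to 30.9 CPM in all 6 mice, which does not check the labels, since the deletion is in dendritic cells. The 10 Tfh markers, *Bcl6*, *Pdcd1*, *Icos* and *Il21* among them, were found in every mouse, and 5 of the 10 had the higher mean in *Prdm1*-CKO mice. Every *Prdm1*-CKO mouse was below every CTL mouse for 1 of them, beside 3.86% of all genes tested. This was *Cd4*, at 896, 1061 and 1031 CPM in CTL and at 823, 774 and 847 CPM in *Prdm1*-CKO mice. RNA of other cells was also there. The summed level of 10 macrophage markers was 2158 to 4621 CPM in CTL and 3768 to 4566 CPM in *Prdm1*-CKO mice. It was lowest in CTL replicate 2, with *Marco* at 0, and highest in CTL replicate 1, where *Lyz2* gave 3476 CPM. The summed level of 10 B cell markers was 109 to 181 CPM in CTL and 154 to 242 CPM in *Prdm1*-CKO mice. *Pax5*, *Fcer2a* and *Ebf1* were at 0 in CTL replicate 2. In both the macrophage and the B cell list 10 of 10 had the higher mean in *Prdm1*-CKO mice, where 48.9% of all genes tested had a log2 fold change below 0. Every *Prdm1*-CKO mouse was above every CTL mouse for 2 macrophage markers and 3 B cell markers, beside 4.56% of all genes tested. B cells use most of these homing receptors too, and the part of B cell RNA in the values below was not tested. In sorted bulk RNA, fewer cells with a transcript and less of it per cell cannot be told apart.

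Promoters of 6 members were found in RefSeq on GRCm38.p6, each from 250 bases before to 50 bases after the start. The letters CACCC, the core that KLF factors bind, stood on either strand in 3 of these 6 (*Cxcr4*, *S1pr4* and *Klf2*), beside 57.5% of 32851 promoters of the same length. GTAAACA, a core of FOXO binding sites, stood in 0 of the 6 and in 3.65% of all. The stretches of 250 bases before the start are shown for *Cxcr4* (chr1:128592300-128592549, minus strand) and *S1pr4* (chr10:81500138-81500387, minus strand), receptors at rank 9 and rank 3 of the levels below, with the match in capitals. It begins 219 bases before the start of *Cxcr4* and 107 before that of *S1pr4*. In *Klf2* it begins 19 bases before the RefSeq start, where the longer GENCODE gene model has already begun.
Cxcr4: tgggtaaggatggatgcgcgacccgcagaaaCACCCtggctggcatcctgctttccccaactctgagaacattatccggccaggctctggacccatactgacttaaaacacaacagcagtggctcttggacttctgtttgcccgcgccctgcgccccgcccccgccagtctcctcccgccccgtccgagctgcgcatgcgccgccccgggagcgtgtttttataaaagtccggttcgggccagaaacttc
S1pr4: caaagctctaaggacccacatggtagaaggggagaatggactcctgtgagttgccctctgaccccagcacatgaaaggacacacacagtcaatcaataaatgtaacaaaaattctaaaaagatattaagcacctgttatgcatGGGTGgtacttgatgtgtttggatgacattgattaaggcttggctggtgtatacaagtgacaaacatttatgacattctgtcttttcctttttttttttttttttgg

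*Cxcr5* (ENSMUSG00000047880.15), the receptor for the follicular chemokine CXCL13 and one of the surface proteins of the sort gate, lies on the minus strand of chromosome 9 of GRCm38 from 44511787 to 44561877. It was at 313, 254 and 477 CPM in CTL replicates 1 to 3 and at 325, 268 and 363 CPM in *Prdm1*-CKO replicates 1 to 3. CTL replicates 2 and 3 held the lowest and the highest value of the 6, so the *Prdm1*-CKO mice lay inside the range of the CTL mice. The means were 348 ± 116 CPM (SD, n = 3) in CTL and 319 ± 47.9 CPM (SD, n = 3) in *Prdm1*-CKO mice, or -0.13 as log2 fold change (standard error 0.24, interval -0.68 to 0.42). B cell markers summed to 181, 109 and 122 CPM in CTL replicates 1 to 3 and to 242, 154 and 223 CPM in *Prdm1*-CKO replicates 1 to 3. Their part in the *Cxcr5* values was not tested. Without CTL replicate 3 the direction turned, to 0.18. Its exons share 110 bp with those of *Bcl9l* on the opposite strand, 3.30% of the exon length, and *Bcl9l* had 198 to 419 counts per mouse.

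*Cxcr4* (ENSMUSG00000045382.6), the receptor for CXCL12 that draws cells to the dark zone of the germinal center and to the bone marrow, had by far the fewest counts of the 9, from 67 to 297 per mouse. It was at 20.3, 12.3 and 9.91 CPM in the CTL mice and at 14.7, 17.7 and 8.35 CPM in the *Prdm1*-CKO mice. Replicate 3 was the lowest of each group, and the groups overlapped throughout. Its log2 fold change was -0.07 (standard error 0.40), with the widest interval of the 9 (-0.98 to 0.84), and it turned to 0.27 without CTL replicate 1 and to 0.18 without *Prdm1*-CKO replicate 3. The gene lies on the minus strand of chromosome 1 from 128588199 to 128592293.

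*Cxcr3* (ENSMUSG00000050232.6), a receptor of Th1 cells for the interferon-induced chemokines CXCL9, CXCL10 and CXCL11, had the highest level per length of the 9. CTL replicates 1 to 3 were at 345, 408 and 592 CPM and *Prdm1*-CKO replicates 1 to 3 at 359, 381 and 384 CPM. The *Prdm1*-CKO mice lay close together, with an SD of 3.64% of their mean, where the CTL mice spread over 28.7%. With a log2 fold change of -0.26 (standard error 0.20, interval -0.72 to 0.20, unadjusted p = 0.234), it had the smallest p of the 9. That difference rested on CTL replicate 3, since without it the log2 fold change was 0.00037. The gene lies on the minus strand of chromosome X from 101731535 to 101734269.

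*Ccr7* (ENSMUSG00000037944.8), the receptor that keeps T cells in the T cell zone, was abundant in these CXCR5+PD1+ cells. Its levels were 453, 368 and 407 CPM in CTL and 393, 349 and 429 CPM in *Prdm1*-CKO mice. The groups were interleaved and the SD was 10.5% of the mean in CTL and 10.2% in *Prdm1*-CKO mice. The log2 fold change of -0.07 (standard error 0.15) had an interval of -0.40 to 0.27, and it turned to 0.015 without *Prdm1*-CKO replicate 2. *Ccr7* lies on the minus strand of chromosome 11 from 99144196 to 99155077.

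*Gpr183* (ENSMUSG00000051212.8), which codes for the oxysterol receptor of the outer follicle, was at 198, 213 and 245 CPM in CTL and at 163, 179 and 225 CPM in *Prdm1*-CKO mice. *Prdm1*-CKO replicates 1 and 2 were the lowest of the 6, but replicate 3 exceeded CTL replicates 1 and 2. Its log2 fold change was -0.21 (standard error 0.17, interval -0.60 to 0.18). All 13 alternative fits, 6 of them with 1 mouse left out, gave a value below 0, from -0.35 to -0.11, and in none did p pass the threshold. The gene lies on the minus strand of chromosome 14 from 121952551 to 121965195.

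*S1pr1* (ENSMUSG00000045092.8), the receptor for exit into blood and lymph, was at 230, 228 and 285 CPM in CTL and at 261, 271 and 272 CPM in *Prdm1*-CKO mice. CTL replicates 1 and 2 were below every *Prdm1*-CKO mouse and CTL replicate 3 was above all of them. The log2 fold change was 0.11 (standard error 0.14, interval -0.22 to 0.44), from 0.04 without CTL replicate 2 to 0.23 without CTL replicate 3. *Cd69*, whose protein binds S1PR1 and takes it off the surface, was at 193 ± 54.2 CPM (SD, n = 3) in CTL and 171 ± 25.3 CPM (SD, n = 3) in *Prdm1*-CKO mice, or -0.17 as log2 fold change (standard error 0.22). *S1pr1* lies on the minus strand of chromosome 3 from 115710433 to 115715072.

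*S1pr4* (ENSMUSG00000044199.6), a sphingosine 1-phosphate receptor of lymphocytes and other blood cells, varied least of the 9 between all mice, with a ratio of 1.21 between the highest and the lowest. It was at 301, 283 and 292 CPM in CTL and at 287, 248 and 253 CPM in *Prdm1*-CKO mice. Only *Prdm1*-CKO replicate 1 came above a CTL mouse, replicate 2. The log2 fold change was -0.15 (standard error 0.13, interval -0.45 to 0.15), and it stayed between -0.22 and -0.10 in the 13 alternatives. *S1pr4* lies on the minus strand of chromosome 10 from 81497747 to 81500132.

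*Klf2* (ENSMUSG00000055148.7), the transcription factor that keeps *S1pr1* on and is lowered in Tfh cells after ICOS signals, was at 61.7, 46.4 and 66.4 CPM in CTL and at 55.2, 75.5 and 51.3 CPM in *Prdm1*-CKO mice. CTL replicate 2 was the lowest and *Prdm1*-CKO replicate 2 the highest. The log2 fold change of 0.06 (standard error 0.22, interval -0.46 to 0.58) turned to -0.09 without CTL replicate 2 and to -0.12 without *Prdm1*-CKO replicate 2. *Foxo1* (ENSMUSG00000044167.6), which codes for the factor upstream of it, was at 82.6, 103 and 97.7 CPM in CTL and at 63.5, 123 and 84.6 CPM in *Prdm1*-CKO mice. Both the lowest and the highest mouse were *Prdm1*-CKO mice, and the log2 fold change was -0.07 (standard error 0.25, interval -0.64 to 0.50), or 0.14 without *Prdm1*-CKO replicate 1. *Klf2* lies on the plus strand of chromosome 8 from 72319033 to 72321656 and *Foxo1* on the plus strand of chromosome 3 from 52268336 to 52353221. *Gm20402*, which shares 674 bp of exon with *Foxo1* on the opposite strand, had 0 counts in every mouse.

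**Figure D1:**
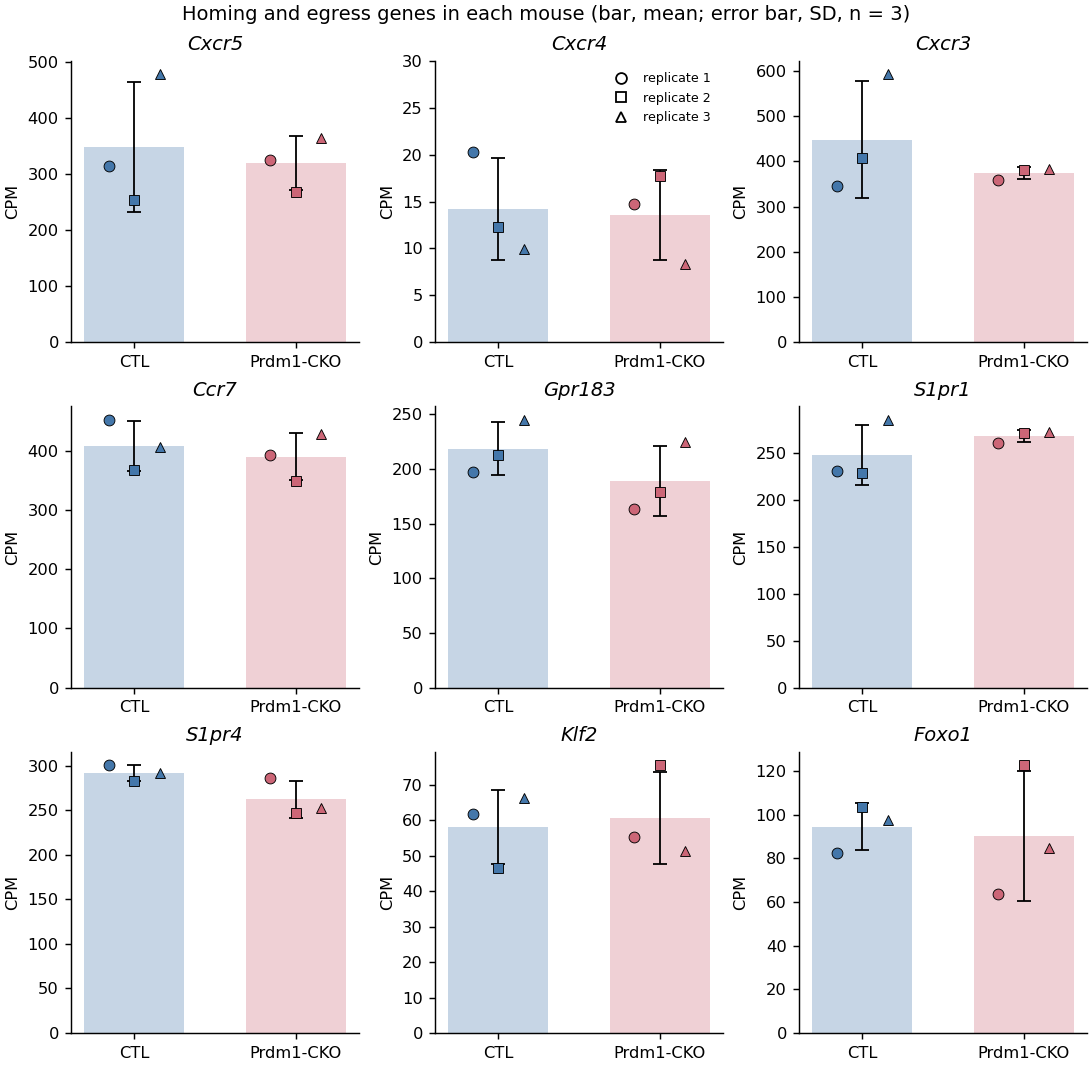
CPM (y axis, from 0, own scale per panel) of each of the 9 genes in 3 CTL and 3 *Prdm1*-CKO mice, with symbols for replicates, bars for means and error bars for SD. The groups overlap in all 9 panels, and CTL replicate 3 is the highest mouse for *Cxcr5*, *Cxcr3*, *Gpr183* and *S1pr1*.

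For the 9 genes together, 0 of 9 had groups that did not overlap, where 8.42% of the 14555 genes tested had every *Prdm1*-CKO mouse above (4.56%) or below (3.86%) every CTL mouse. Past an unadjusted p of 0.05 were 0 of 9 members and 2.35% of all genes tested (342 genes in edgeR, 0.928% higher and 1.42% lower in *Prdm1*-CKO mice). Past an adjusted p of 0.05 were 0 of 9 and 0% of all genes (0 genes in edgeR). DESeq2 called 7 higher and 2 lower after adjustment. It was given the 26045 genes with at least 1 count and by default filters them by mean count before adjustment. The adjusted p from edgeR was 0.996 for each of the 9. Of their log2 fold changes, 7 were below 0 and 2 above, with a median of -0.07, against 48.9% below 0 and a median of 0.01 over all genes tested. The median absolute log2 fold change was 0.11 for the members and 0.23 over all genes tested. Without CTL replicate 2 the log2 fold changes were -0.32 for *Cxcr5*, -0.18 for *Cxcr4*, -0.34 for *Cxcr3*, -0.15 for *Ccr7*, -0.24 for *Gpr183*, 0.04 for *S1pr1*, -0.19 for *S1pr4*, -0.09 for *Klf2* and -0.01 for *Foxo1*, so those of *Cxcr5*, *Cxcr4* and *Ccr7* lay over 2 times as far from 0, and the adjusted p was 0.999 for each (edgeR). Over the 13 alternative fits, the smallest unadjusted p of any member was 0.0622 and the smallest adjusted p 0.706 (edgeR, DESeq2 and limma).

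**Figure D2:**
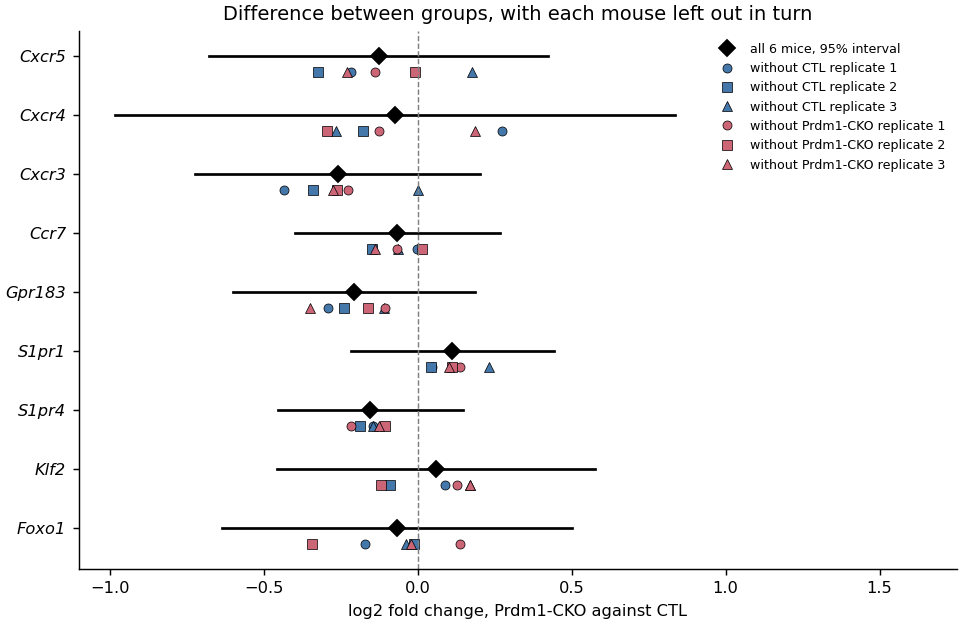
Log2 fold change of *Prdm1*-CKO against CTL (x axis) for the 9 genes (y axis), as a diamond with its 95% interval from edgeR for all 6 mice and as small symbols with 1 mouse left out. All 9 intervals hold 0, and *Gpr183*, *S1pr1* and *S1pr4* keep their side of 0 whichever mouse is left out.

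The spread between mice is given here beside the error that counting alone gives in a single library. For *Cxcr5* the SD between CTL mice was 33.2% of the mean, beside 1.82% from counting, and for *S1pr1* in *Prdm1*-CKO mice the numbers were closest, 2.42% beside 1.68%. *Cxcr4*, with the fewest counts, had a spread of 38.5% in CTL mice beside 9.64% from counting. The biological coefficient of variation estimated by edgeR ran from 0.15 for *S1pr4* to 0.37 for *Cxcr4*, with a median of 0.20 over the members and 0.31 over all genes tested.

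Levels can be compared between genes only per length, here as CPM per kb of exon. The order, as means of 6 mice, was *Cxcr3* (238 ± 52.7, SD, n = 6), *Ccr7* (202 ± 19.4), *S1pr4* (116 ± 9.09), *Cxcr5* (100.1 ± 24.2), *S1pr1* (84.7 ± 7.74), *Gpr183* (70.6 ± 10.4), *Klf2* (32.2 ± 5.76), *Foxo1* (10.7 ± 2.34) and *Cxcr4* (7.68 ± 2.54). The 6 most abundant, all receptors, exceeded at least 95.2% of the genes tested, and *Cxcr4* exceeded 57.3%. Of the 8 neighbours in this order, 3 did not overlap in any mouse: *Ccr7* above *S1pr4*, *Gpr183* above *Klf2*, and *Klf2* above *Foxo1*. The ranges of the other 5 pairs overlapped across mice. Within mice, *S1pr1* was above *Gpr183* in 6 of 6, *Cxcr3* above *Ccr7* and *Cxcr5* above *S1pr1* in 5 of 6, and *S1pr4* above *Cxcr5* and *Foxo1* above *Cxcr4* in 4 of 6. The same order was found within CTL and within *Prdm1*-CKO mice. With coding length or the longest transcript in place of all exons, *Cxcr5* and *S1pr4* changed places and 7 of 9 genes stayed in theirs.

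**Figure D3:**
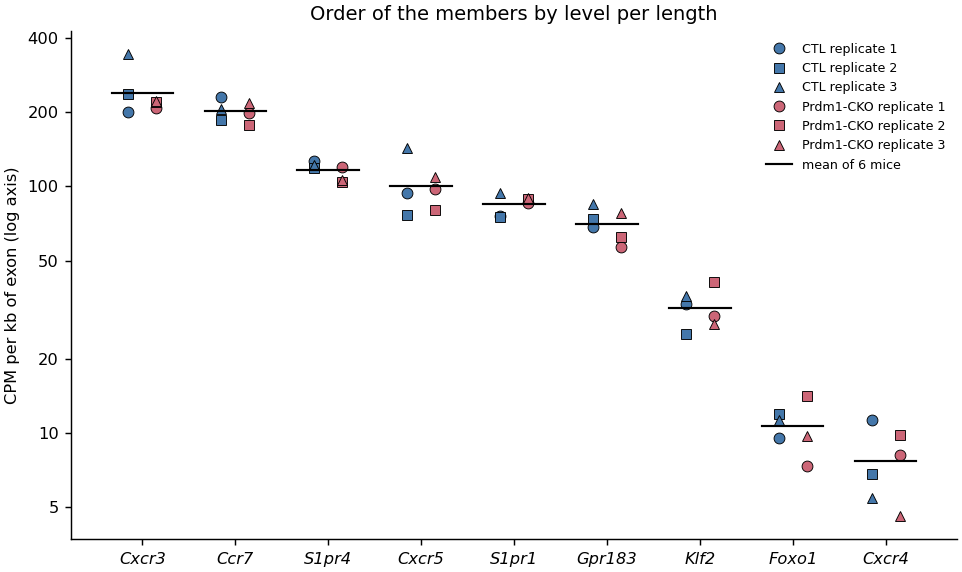
Level of the 9 genes in CPM per kb of exon (y axis, log axis) in each CTL and *Prdm1*-CKO mouse, ordered by the mean of 6 mice (black line). *Cxcr3* and *Ccr7* lie between 177 and 342, *S1pr4* to *Gpr183* between 56.6 and 143, and *Foxo1* and *Cxcr4* between 4.62 and 14.2.

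Ratios within a mouse do not depend on the size of its library. They are ratios of counts not divided by exon length, so their sign does not rank the genes by level. The log2 ratio of *Cxcr5* to *Ccr7* counts, which sets the follicle receptor against the T cell zone receptor, was -0.53, -0.53 and 0.23 in CTL and -0.27, -0.38 and -0.24 in *Prdm1*-CKO mice. Only CTL replicate 3 had more *Cxcr5* than *Ccr7* counts, but per kb of exon *Ccr7* was above *Cxcr5* in every mouse. The mean log2 ratios differed by -0.02 (two-sided exact permutation test, p = 1). The ratio of *Cxcr5* to *S1pr1* was 0.45 ± 0.29 (log2, SD, n = 3) in CTL and 0.24 ± 0.23 (SD, n = 3) in *Prdm1*-CKO mice, a difference of -0.21 (exact permutation p = 0.4), and that of *Klf2* to *Foxo1* was -0.71 ± 0.39 and -0.54 ± 0.29, a difference of 0.17 (exact permutation p = 0.6). These were the 3 ratios computed, with Benjamini-Hochberg adjusted p values of 1, 0.9 and 0.9 by exact permutation, and 3 mice against 3 cannot give a p under 0.1.

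Among the other genes of these pathways, 0 of the 89 tested passed an adjusted p of 0.05 in edgeR, and 4 passed an unadjusted p of 0.05, 1 higher and 3 lower in *Prdm1*-CKO mice, which is 4.49% beside 2.35% of all genes. Of 18 other chemokine receptor genes 14 were tested. Their median log2 fold change was 0.08, with 7 above and 7 below 0. *Cx3cr1*, the fractalkine receptor of monocytes and cytotoxic cells, had the highest level per length among them, at 178, 113 and 141 CPM in CTL and 191, 170 and 228 CPM in *Prdm1*-CKO mice, or 0.44 as log2 fold change (standard error 0.20, unadjusted p = 0.0593 from edgeR). CTL replicate 1 exceeded *Prdm1*-CKO replicate 2. The macrophage markers given above summed to 4621, 2158 and 3320 CPM in CTL replicates 1 to 3. In *Prdm1*-CKO replicates 1 to 3 they summed to 4500, 3768 and 4566 CPM. Their part in the *Cx3cr1* values was not tested. *Ccr8*, a receptor of regulatory and Th2 cells, came next in level and was at 44.7 ± 12.0 CPM (SD, n = 3) in CTL and 35.1 ± 1.98 CPM (SD, n = 3) in *Prdm1*-CKO mice. The 4 Treg markers summed to 550.1 to 615 CPM in CTL and 453 to 535 CPM in *Prdm1*-CKO mice. The sums did not overlap, but the groups overlapped for each of the 4 markers taken alone. *Foxp3* was at 173, 176 and 171 CPM in CTL and at 182, 134 and 155 CPM in *Prdm1*-CKO mice. Of the Treg markers, 0 of 4 were higher on average in *Prdm1*-CKO mice and none was at 0. Their part in the *Ccr8* values was not tested. *Ccrl2*, an atypical receptor that binds chemerin, was at 13.5, 10.9 and 14.9 CPM in CTL and 19.1, 18.9 and 20.8 CPM in *Prdm1*-CKO mice. It was the only 1 of the 14 genes tested in this list with no overlap, beside 8.42% of all genes tested. Its log2 fold change was 0.58 (standard error 0.25, unadjusted p = 0.0499 and adjusted p = 0.996 from edgeR), and p was under 0.05 in 5 of 14 fits. Of the fits with 1 mouse left out, only the one without CTL replicate 3 kept it under 0.05 (0.0396), and the other 5 gave 0.0826 to 0.140 (edgeR).

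Of 15 genes for ligands and their enzymes, 6 were tested, 3 above and 3 below 0, with a median log2 fold change of -0.27. Every *Prdm1*-CKO mouse was above every CTL mouse for 1 of the 6 and below for 1, beside 4.56% and 3.86% of all genes tested. *Ccl19* and *Ccl21a*, the CCR7 ligands made by stromal cells, had 0 counts in every mouse. Of the CXCR3 ligands, *Cxcl10* had 67 to 461 counts in every mouse, with a log2 fold change of 0.01 (standard error 0.50), and *Cxcl9* had 30 to 125 counts in 5 mice and 0 in CTL replicate 2. Both were named after their values were seen. *Ccl5*, a chemokine of activated and cytotoxic T cells, had the highest level per length of this list and the smallest p of all 5 lists. It was at 85.4, 74.3 and 109 CPM in CTL and at 42.1, 59.2 and 50.8 CPM in *Prdm1*-CKO mice. Every *Prdm1*-CKO mouse was thus below every CTL mouse, which held for 3.86% of all genes tested. Its log2 fold change was -0.82 (standard error 0.21, unadjusted p = 0.00465 and adjusted p = 0.996 from edgeR). In all 14 fits the value was below 0, from -0.95 to -0.65, with an unadjusted p between 9.26e-04 and 0.0261, and the smallest adjusted p was 0.354 (edgeR, DESeq2 and limma). *Ccl4*, made by the same kinds of cells, was at 42.7, 25.6 and 15.2 CPM in CTL and at 15.3, 9.15 and 15.1 CPM in *Prdm1*-CKO mice, or -1.08 as log2 fold change (standard error 0.40, unadjusted p = 0.0274 from edgeR). Without CTL replicate 1 p was 0.130, and without *Prdm1*-CKO replicate 2 it was 0.0959 (edgeR). *Ccl3* was at 32.5 ± 21.6 CPM (SD, n = 3) and 22.2 ± 3.19 CPM (SD, n = 3). The 6 CD8 and NK cell markers summed to 201 to 259 CPM in CTL and to 176 to 206 CPM in *Prdm1*-CKO mice. Of the 6, 2 had the higher mean in *Prdm1*-CKO, and all 6 were found in every mouse. Every *Prdm1*-CKO mouse was above every CTL mouse for 1, *Cd8b1*, and below for 2, *Cd8a* and *Nkg7*, beside 4.56% and 3.86% of all genes tested. The part of such cells in the *Ccl5* and *Ccl4* values was not tested.

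Of 13 genes of sphingosine 1-phosphate handling, ceramide synthases and *Cd69* among them, 11 were tested. Of these, 0 passed an unadjusted p of 0.05 in edgeR, with a median log2 fold change of 0.12. *Cers2*, a ceramide synthase, and *Cd69* had the highest levels. *Cers2* was at 320 ± 21.6 CPM (SD, n = 3) in CTL and 290.2 ± 24.96 CPM (SD, n = 3) in *Prdm1*-CKO mice. *S1pr5*, the receptor by which NK cells leave tissues, was at 52.3, 18.8 and 27.8 CPM in CTL and 58.2, 46.3 and 39.2 CPM in *Prdm1*-CKO mice, with CTL replicate 1 inside the range of the *Prdm1*-CKO mice (log2 fold change 0.53, standard error 0.37). Counts of *S1pr3* were few, 22, 0 and 0 in the CTL mice and 18, 4 and 82 in the *Prdm1*-CKO mice.

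All 30 genes of G protein signaling and cell migration were tested, with 15 above and 15 below 0 and a median log2 fold change of -0.01. *Coro1a* and *Rac2*, which drive actin at the leading edge of lymphocytes, had the highest levels, 3530 ± 390.2 and 2193 ± 248 CPM (SD, n = 3) in CTL and 3583 ± 119 and 1975 ± 67.1 CPM (SD, n = 3) in *Prdm1*-CKO mice. *Dock8*, an exchange factor for CDC42 needed by migrating T cells, was at 169, 185 and 143 CPM in CTL and at 112, 119 and 136 CPM in *Prdm1*-CKO mice. On the log2 scale the fold change was -0.44 (standard error 0.16, unadjusted p = 0.0269 and adjusted p = 0.996 from edgeR), and p was under 0.05 in 8 of 14 fits. It rose to 0.0526 without CTL replicate 1, 0.0579 without CTL replicate 2, 0.105 without *Prdm1*-CKO replicate 1 and 0.0764 without *Prdm1*-CKO replicate 2 (edgeR). *Rhoh*, a GTPase of T cell receptor signaling, was at 465 ± 27.0 CPM (SD, n = 3) in CTL and 383 ± 15.3 CPM (SD, n = 3) in *Prdm1*-CKO mice, with no overlap (log2 fold change -0.28, standard error 0.12, unadjusted p = 0.0526 from edgeR). In this list 3 genes had every *Prdm1*-CKO mouse below every CTL mouse, beside 3.86% of all genes tested.

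All 28 further genes of the *Klf2*-*Foxo1* axis were tested and 0 passed an unadjusted p of 0.05, with 8 above and 20 below 0 and a median log2 fold change of -0.08. *Itgb7*, an integrin gene that KLF2 raises, and *Tcf7*, a transcription factor gene of naive and Tfh cells, had the highest levels. *Itgb7* was at 634, 1007 and 1103 CPM in CTL and at 1027, 971 and 1001 CPM in *Prdm1*-CKO mice, with only CTL replicate 1 apart. *Tcf7* was at 574 ± 71.9 CPM (SD, n = 3) and 517 ± 32.6 CPM (SD, n = 3). *Pdpk1*, the kinase that activates AKT, was at 88.8, 129 and 101 CPM in CTL and at 77.7, 86.5 and 79.1 CPM in *Prdm1*-CKO mice (log2 fold change -0.39, standard error 0.18, unadjusted p = 0.0643 from edgeR). *Pik3ip1*, an inhibitor of PI3K and so of the opposite role, was at 111 ± 8.16 CPM (SD, n = 3) and 92.5 ± 4.78 CPM (SD, n = 3), or -0.27 as log2 fold change (standard error 0.15). For both, every *Prdm1*-CKO mouse was below every CTL mouse, which held for 2 of the 28 genes of this list and for 3.86% of all genes tested.

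**Figure D4:**
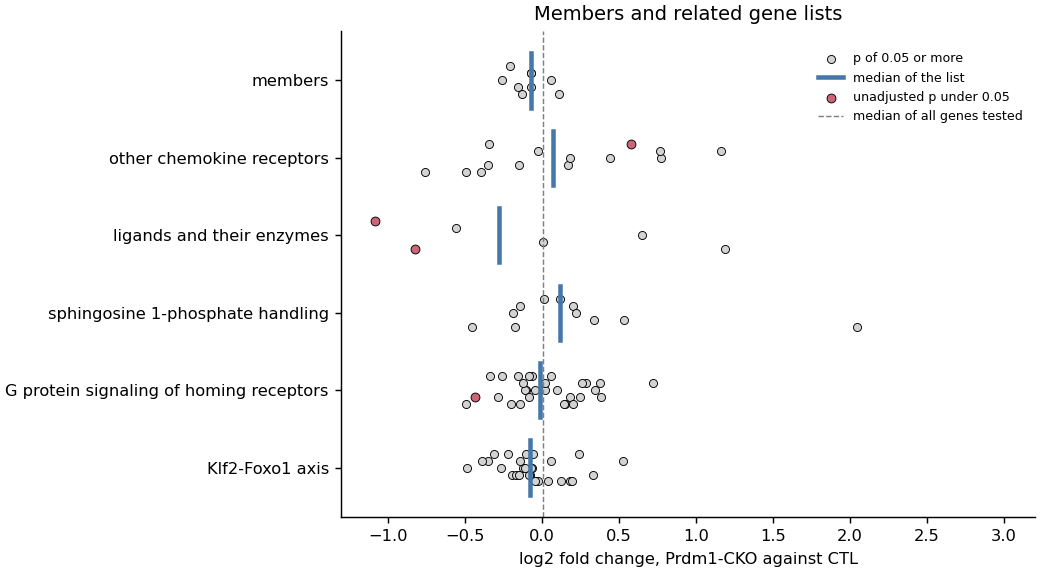
Log2 fold change of *Prdm1*-CKO against CTL (x axis) of each tested gene among the 9 members and in the 5 related lists, with list medians as blue bars and the median of all genes tested as a dashed line. The medians lie between -0.27 and 0.12, and 4 genes, *Ccrl2*, *Ccl4*, *Ccl5* and *Dock8*, have an unadjusted p under 0.05.

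The genes most like *Cxcr5*, *S1pr1* and *Klf2* across mice were sought among 9301 genes at 10 CPM or more, as Pearson's r of log2 CPM over 6 mice, as a description of 6 libraries that share 1 sort. For *Cxcr5* they were *Trbj2-1*, *Rmnd5b* and *Fars2* (r from 0.984 to 0.989). For *S1pr1* they were *Eef1b2*, *Psmb9* and *Rps15a-ps5* (0.987 to 0.993), and for *Klf2* *Use1*, *Fam173b* and *Secisbp2l*, each at 0.985. Of the genes searched, 116, 152 and 99 had an r over 0.9 with *Cxcr5*, *S1pr1* and *Klf2*. Over the 5 mice without CTL replicate 2 the named genes had an r of 0.975 to 0.994, and 0 of 3 stayed among the top 3 for each of *Cxcr5*, *S1pr1* and *Klf2*. These 5 mice were among the 6 that picked the genes, so that r is no separate check. In a search of 9301 genes over 6 mice, values this high can arise without any link between genes. How often they would was not tested.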

How the data were processed

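Per the labels, STAR 2.4.2a and GRCm38.p6 were used by the submitters, and the methods name featureCounts and a GENCODE annotation of GRCm38. The authors deposited raw counts per gene, 1 library per mouse, from paired reads of 25 bp, without normalization. Smart-seq2 does not mark strand, so reads of overlapping genes on opposite strands cannot be told apart, and the handling of multiply aligned reads is not given in the sources used here. Nothing in the labels names a batch.

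Gene models of GENCODE M21 (GRCm38) gave symbols, positions and exon lengths, and in them all 9 members have the identifier version of the files. Counts were normalized with TMM, filtered with filterByExpr and tested with edgeR 4.0.16 (R 4.3.3) quasi-likelihood for 3 against 3 mice without a covariate, two-sided, with Benjamini-Hochberg adjustment over 14555 genes. Intervals are log2 fold change ± the t quantile times the standard error. Promoters came from RefSeq. Alternatives were DESeq2 1.42.0 (size factors and Wald test), limma 3.58.1 voom with quality weights, library sizes from *Cd3* genes, 2 filters, the replicate number as a block and each mouse left out. The edgeR, DESeq2 and voom fits were also run on simulated counts, with changes larger than those of the members. Ratios, levels per length and the search for like genes were not simulated. From each list, every gene past an adjusted p of 0.05, or else the 2 with the smallest unadjusted p, and the 2 with the highest level per length were named. Members and lists were chosen with earlier results of these data known.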

Additional observations from a re-analysis of the deposited data

How the results depend on the processing

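Members: 0 passed an adjusted or unadjusted p of 0.05 in any of the 13 alternatives, in either direction. *Gpr183*, *S1pr1* and *S1pr4* kept their direction in all of them, and 6 members turned in at least 1. With 1 mouse left out, log2 fold changes ran from -0.32 to 0.18 for *Cxcr5*, from -0.30 to 0.27 for *Cxcr4*, from -0.43 to 0.00037 for *Cxcr3*, from -0.15 to 0.015 for *Ccr7*, from -0.12 to 0.17 for *Klf2* and from -0.34 to 0.14 for *Foxo1*. Voom put *Klf2* at -0.11 and *Cxcr4* at -0.47, the lowest value of any member. The difference of the log2 ratio ran from -0.15 to 0.23 for *Cxcr5* to *Ccr7*, from -0.35 to -0.060 for *Cxcr5* to *S1pr1* and from -0.052 to 0.31 for *Klf2* to *Foxo1*. The first turned without CTL replicate 3 or *Prdm1*-CKO replicate 2 and the last without CTL replicate 2 or *Prdm1*-CKO replicate 1.

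All genes and lists: edgeR called 135 genes higher and 207 lower without adjustment (p under 0.05). DESeq2's Wald test, given 26045 genes without the expression filter, called 264 and 417. After adjustment, with its default filter by mean count, it called 7 and 2. No filter in edgeR gave 426 and 510 (1 higher after adjustment), and voom 268 higher. Left-out mice gave 58 to 580 higher and 107 to 617 lower. Of the list genes, 1 was higher, and this became 0 with DESeq2's size factors or at least 10 counts in every mouse, 2 without a filter, 3 in voom and 0 to 6 with a mouse left out. With a mouse left out, the median kept its sign for the *Klf2*-*Foxo1* axis (-0.20 to -0.042) and changed it for the other 4 lists, from -0.049 to 0.063 for G protein signaling, from -0.24 to 0.29 for chemokine receptors, from -0.60 to 0.064 for ligands and from -0.096 to 0.23 for sphingosine 1-phosphate genes. Without CTL replicate 2, 0 of the 3 most like genes stayed for each of *Cxcr5*, *S1pr1* and *Klf2*. The cause of each change was not tested.

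Same-numbered mice were different animals, and the main fit did not pair them. Residual correlations were 0.158, 0.028 and 0.016 between same-numbered mice and -0.131 to 0.083 between differently numbered mice of the 2 groups. Whether the numbers mark a pairing was not tested. With the replicate block, 175 genes were higher and 196 lower, and 0 members were called.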
